A study of Homo sapiens with 18 samples.

Results

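The tRNAs that carry lysine, arginine or histidine were followed after depletion of SSB, also known as La. The count table held 175935 rows of noncoding RNA, of which 499 were named as tRNA genes. The 63 genes described here were the rows named for Lys, Arg or His whose length was at most 500 nt, with the arginine tRNAs of anticodon TCT left out. They were 31 lysine genes (16 Lys-CTT and 15 Lys-TTT), 22 arginine genes (7 Arg-ACG, 4 Arg-CCG, 5 Arg-CCT and 6 Arg-TCG) and 10 histidine genes (His-GTG), where the letters after the amino acid give the anticodon of the tRNA as DNA. By position, 56 of the 63 matched a RefSeq tRNA gene, and these are called here by the RefSeq symbol (TRK for lysine, TRR for arginine, TRH for histidine), since the table gives several genes 1 name.

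The study was done in HEK293T, a human embryonic kidney cell line. Cells were transfected with a scramble siRNA (control) or an siRNA against SSB (siSSB), and RNA was taken 48 h later from whole cells (total), nuclei (nuc) or cytoplasm (cyto). Each of the 6 groups had 3 libraries of small RNA, prepared with PNK per their titles and described as biological replicates. All groups come from a single line, and SSB mRNA has no row of its own in a table of noncoding RNA, so the extent of the knockdown was not measured here.

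La binds the run of U that ends a new transcript of RNA polymerase III, and tRNA precursors are among its best known targets. It shields the 3′ trailer of the precursor and steers the order in which its ends are cut, before the mature tRNA leaves the nucleus. A human anticodon is served by several gene copies, some identical over the mature sequence and some differing by a few bases. Copies that are identical over the gene can differ in what follows it. Lys-TTT reads AAA codons, Lys-CTT reads AAG, Arg-ACG reads CGU and, once its first anticodon base is modified, CGC and CGA, Arg-CCT reads AGG, Arg-TCG reads CGA, Arg-CCG reads CGG, and His-GTG reads CAC and CAU. The tRNA of histidine is unusual in receiving an extra guanosine at its start after transcription.

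The sequences below show the genes that the results turn on, 5′ to 3′ from the start of the gene to the end of the first run of at least 4 T behind it, read from the genome build GRCh38 (hg38). Capitals mark the anticodon and that T run, which is the likely end of the transcript. The table's rows reach 25 nt beyond the gene on either side, so part of a trailer longer than that lies outside the counted row.

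The lysine genes shown are TRK-TTT9-1, with the lowest adjusted p after knockdown, TRK-TTT3-3, which passed the test in all 3 kinds of RNA, TRK-TTT7-1, the Lys-TTT gene with the highest level, and TRK-CTT2-5, the only Lys-CTT gene that passed.
TRK-TTT9-1, chr6:27576067-27576139, plus strand: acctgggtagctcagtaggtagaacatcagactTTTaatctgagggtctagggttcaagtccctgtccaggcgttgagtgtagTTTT
TRK-TTT3-3, chr6:28951029-28951101, plus strand: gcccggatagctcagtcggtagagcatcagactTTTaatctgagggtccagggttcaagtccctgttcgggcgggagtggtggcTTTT
TRK-TTT7-1, chr6:28747744-28747816, plus strand: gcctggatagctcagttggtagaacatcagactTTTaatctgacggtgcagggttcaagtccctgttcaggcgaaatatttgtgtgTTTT
TRK-CTT2-5, chr16:3175691-3175763, plus strand: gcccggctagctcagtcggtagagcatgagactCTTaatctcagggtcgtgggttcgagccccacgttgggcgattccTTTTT

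The arginine genes shown are a pair with 1 gene sequence and unlike trailers (TRR-ACG1-1 and TRR-ACG1-2), a pair that differ by 2 of 73 bases (TRR-CCT2-1 and TRR-CCT4-1), and the Arg-TCG gene that passed the test.
TRR-ACG1-1, chr6:26328140-26328212, plus strand: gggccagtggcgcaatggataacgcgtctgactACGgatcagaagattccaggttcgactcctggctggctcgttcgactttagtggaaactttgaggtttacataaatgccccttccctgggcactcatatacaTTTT
TRR-ACG1-2, chr6:26537498-26537570, plus strand: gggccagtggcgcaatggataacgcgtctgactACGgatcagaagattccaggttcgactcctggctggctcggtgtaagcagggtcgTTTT
TRR-CCT2-1, chr17:75034431-75034503, minus strand: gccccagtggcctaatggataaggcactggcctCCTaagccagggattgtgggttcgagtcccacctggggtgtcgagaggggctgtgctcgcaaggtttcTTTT
TRR-CCT4-1, chr7:139340700-139340772, plus strand: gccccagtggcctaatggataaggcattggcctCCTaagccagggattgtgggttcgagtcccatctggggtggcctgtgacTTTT
TRR-TCG4-1, chr6:26299677-26299749, plus strand: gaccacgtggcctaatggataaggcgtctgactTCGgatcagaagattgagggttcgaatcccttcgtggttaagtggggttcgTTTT

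The histidine gene shown is the copy with the highest level, and of the genes shown only TRR-ACG1-1 has a longer trailer.
TRH-GTG1-5, chr6:27158127-27158198, plus strand: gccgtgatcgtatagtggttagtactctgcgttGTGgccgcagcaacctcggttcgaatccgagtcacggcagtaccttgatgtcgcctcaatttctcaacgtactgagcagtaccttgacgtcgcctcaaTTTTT

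The 63 genes held 39 different gene sequences, and 31 of the genes shared theirs with at least 1 other (7 sequences). The B box, an inner promoter element searched for as GTTCNANNC on the gene's strand, was found in 84.1% of the 63 genes and in 83.3% of the other 436 tRNA rows. A run of at least 4 T ended within the 25 nt flank of 42 of the 63 genes (66.7%), against 79.6% of the other tRNA rows. The anticodons differed in this. Such a run was found for 14 of 15 Lys-TTT genes and 11 of 16 Lys-CTT genes but for 1 of 10 His-GTG genes, and the median trailer was 10 nt for Lys-TTT, 5.5 nt for Lys-CTT and 31 nt for His-GTG.

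The column sums of the table lay between 69591874 and 89632050 for control total libraries and between 47662310 and 68707441 for siSSB total. For nuc the sums were 113296277 to 158244813 (control) and 98928007 to 122706550 (siSSB), and for cyto 21565995 to 44712500 (control) and 24842041 to 28975535 (siSSB). Rows overlap, so these sums are not numbers of reads. Levels are given as CPM, the count relative to the size of its library, after TMM scaling, which aligns the bulk of features between libraries, and the scaling was done anew for each comparison, so the level of 1 library can differ between comparisons. A read may come from a whole tRNA, a precursor or a fragment, and these cannot be told apart in the table, nor can fewer cells and less RNA per cell. The genes span 60 to 73 nt and their rows 110 to 123 nt, so their levels can be set side by side without a correction for length.

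In whole cells, SSB knockdown lowered 13 of the 58 Lys, Arg and His genes that could be tested, and raised none. The 13 were 9 Lys-TTT genes, 1 Lys-CTT gene (TRK-CTT2-5), TRR-ACG1-1, TRR-CCT2-1 and TRR-TCG4-1, with log2 fold changes between -1.19 and -2.36. At an unadjusted p under 0.05 there were 47 lower and none higher, beside 16.6% of all features in either direction. No His-GTG gene passed with edgeR, with 6 of the 10 at an unadjusted p under 0.05. Calls were made at an adjusted p under 0.05 by edgeR's quasi-likelihood test with Benjamini-Hochberg adjustment over all 13883 features tested, of which 0.972% were called lower. The median log2 fold change of the 58 genes was -0.91 (range -2.36 to 0.36), beside -0.01 over all features and -0.84 over the 378 other tRNA rows tested, of which 30 were lower. The ranges of the 3 control and 3 siSSB libraries did not overlap for 42 of the 58 genes, all lower in siSSB, against 9.05% of all features. Among the other tRNA rows 217 of 378 were lower without overlap. The count of called genes rested on single libraries: it was 3 without siSSB total replicate 1, 4 without siSSB total replicate 2, 5 without control total replicate 2, 20 without control total replicate 3 and 22 without siSSB total replicate 3. TRK-TTT9-1, TRR-CCT2-1 and TRR-TCG4-1 passed whichever library was left out. Other scalings gave from 4 called (snoRNA total) to 52 (miRNA total), and with the tRNA total 8 were lower and 1 higher, with 35 of the 58 values below 0.

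**Figure D1:**
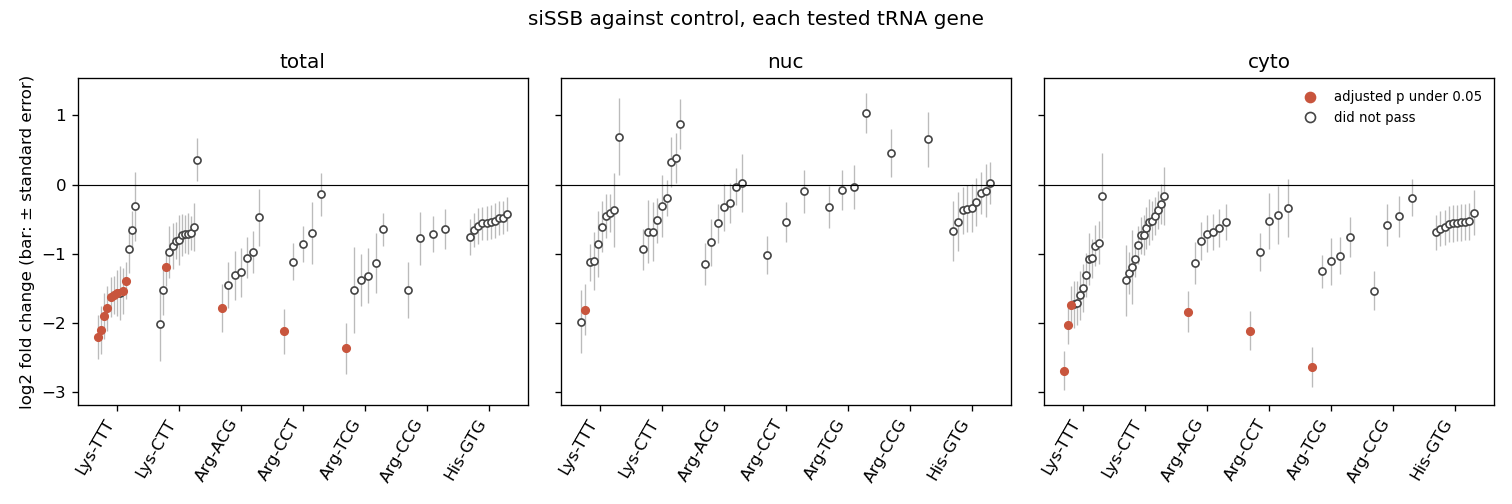
Log2 fold change of siSSB against control (vertical axis, bars are the standard error) for each tested gene, grouped by anticodon, in total, nuc and cyto libraries. Filled points passed the test (13 in total, 1 in nuc, 6 in cyto); all tested genes but 1 lie below 0 in total, and all 58 do in cyto.

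Lys-TTT held most of the calls. In total RNA 9 of the 13 Lys-TTT genes tested passed, with a median log2 fold change of -1.56 over the 13, while 1 of 13 Lys-CTT genes passed, with a median of -0.80. TRK-TTT9-1, a gene with a sequence of its own, stood at 23.2, 15.9 and 16.3 CPM in control total replicates 1, 2 and 3, and at 4.19, 2.52 and 5.34 CPM in the siSSB replicates. Every siSSB library was below every control library (log2 fold change -2.20 ± 0.31 SE, adjusted p = 0.0123, n = 3 against 3, edgeR). TRK-TTT3-4, 1 of 5 genes with the same sequence, went from 24.5, 17.3 and 17.1 CPM to 3.62, 2.88 and 7.27 CPM. The groups were again apart (-2.10 ± 0.35, adjusted p = 0.0196 by edgeR, but 0.0594 without siSSB total replicate 1). The other called Lys-TTT genes were TRK-TTT6-1 (-1.89 ± 0.33), TRK-TTT2-1 (-1.79 ± 0.33), TRK-TTT3-2 (-1.62 ± 0.28), TRK-TTT3-3 (-1.59 ± 0.28), TRK-TTT5-1 (-1.56 ± 0.33), TRK-TTT3-5 (-1.54 ± 0.34) and TRK-TTT4-1 (-1.39 ± 0.27), with edgeR adjusted p from 0.0222 to 0.0445.

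The Lys-TTT gene with the highest level did not pass, although its fold change was like theirs. TRK-TTT7-1 stood at 120.4, 76.6 and 79.6 CPM in control total libraries and at 31.8, 15.7 and 46.1 CPM in siSSB. The groups did not overlap, but both spread widely, and the log2 fold change of -1.56 ± 0.39 had an edgeR adjusted p of 0.0796. This call turned on the settings: the adjusted p was 0.0319 without siSSB total replicate 3 and 0.00227 with DESeq2. Summed over all Lys-TTT genes, the level was 274.6, 192.0 and 197.1 CPM in control and 73.6, 44.5 and 108.0 CPM in siSSB total libraries, a log2 difference of -1.55 ± 0.37.

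**Figure D2:**
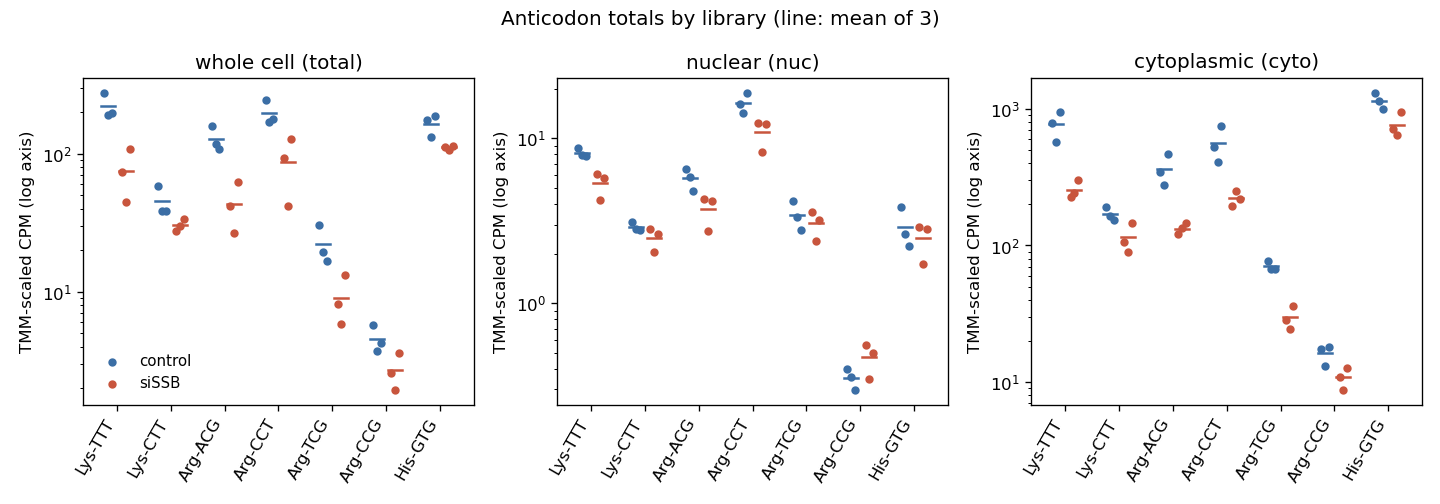
Summed level of each anticodon (vertical axis, TMM-scaled CPM on a log axis) in each library of control and siSSB, for total, nuc and cyto RNA; lines are means of 3 libraries. The 7 anticodons lie lower in siSSB without overlap in total and in cyto, while in nuc only Arg-ACG, Arg-CCT and Lys-TTT do. Of all features, 9.05% do so in total, 9.06% in nuc and 7.53% in cyto. The total of all tRNA rows (not drawn) does so in each, with log2 differences of -0.73 in total, -0.35 in nuc and -0.59 in cyto.

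Lys-CTT and His-GTG were lower by less, and by no more than the total of all tRNA rows (log2 difference -0.73 ± 0.41 in total RNA). The Lys-CTT total was 58.6, 38.6 and 38.6 CPM in control total libraries and 27.6, 30.1 and 33.9 CPM in siSSB, which do not overlap (log2 difference -0.57 ± 0.29), and the His-GTG total was 175.2, 132.5 and 188.6 CPM against 112.7, 107.1 and 113.5 CPM (-0.57 ± 0.30). Both totals turned to the other side when the libraries were scaled to all tRNA (0.22 for Lys-CTT and 0.18 for His-GTG) or to all snoRNA (0.22 and 0.15), and Lys-CTT also with library size alone (0.04), whereas Lys-TTT stayed lower under these scalings (-1.08 to -0.86). Such scalings moved the median of all features in this comparison by 0.55 with library size alone, 0.74 with the tRNA total, -0.52 with the miRNA total and 0.72 with the snoRNA total. TRK-CTT2-5, the called Lys-CTT gene, went from 5.29, 3.28 and 4.53 CPM to 1.80, 1.5 and 2.43 CPM. The groups were apart, and the log2 fold change of -1.19 ± 0.27 was just inside the threshold (edgeR adjusted p = 0.0493). The Lys-CTT total leans on 1 gene, tRNA-Lys-CTT-10-1, which held 411, 584 and 582 of the 3368, 2435 and 2660 Lys-CTT counts in control total libraries and 538, 1355 and 440 of 1702, 2507 and 2178 in siSSB. Without it, an alternative chosen after seeing the data, the Lys-CTT total stood at 51.4, 29.4 and 30.2 CPM in control and 18.9, 13.8 and 27.1 CPM in siSSB (log2 difference -0.89 ± 0.33), and it stayed lower when scaled to all tRNA (-0.16), to all snoRNA (-0.21) or by library size alone (-0.36).

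The gene tRNA-Lys-CTT-10-1, which matched no RefSeq gene, was the only one of the 58 above 0 in total RNA. It stood at 7.15, 9.27 and 8.45 CPM in control and 8.74, 16.3 and 6.85 CPM in siSSB. The groups overlapped (0.36 ± 0.31, edgeR adjusted p = 0.64). The result hung on the scaling: the sign turned with the miRNA total, while with the tRNA total the gene was called higher (1.19, edgeR adjusted p = 0.0343).

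Among the arginine genes, 1 gene per anticodon passed for ACG, CCT and TCG. TRR-ACG1-1 stood at 113.4, 86.4 and 82.2 CPM in control total libraries and at 26.8, 16.4 and 38.8 CPM in siSSB. All siSSB libraries were lower (-1.78 ± 0.35, edgeR adjusted p = 0.0304). TRR-CCT2-1 went from 89.2, 75.3 and 89.6 CPM to 17.1, 14.4 and 26.9 CPM (-2.12 ± 0.32, edgeR adjusted p = 0.0128). TRR-TCG4-1, a gene of low level, had the most negative log2 fold change of the 58: it stood at 2.30, 1.40 and 2 CPM in control and 0.211, 0.276 and 0.623 CPM in siSSB (-2.36 ± 0.37, edgeR adjusted p = 0.0136, and 0.0564 when scaled to all snoRNA). The groups of both genes were clear of each other. Of the highest Arg-TCG gene, TRR-TCG1-1, the log2 fold change was -1.38 ± 0.38 (edgeR adjusted p = 0.0922), and of the highest Arg-CCG gene, TRR-CCG2-1, it was -0.71 ± 0.27 (0.199).

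TRR-CCT4-1 differs from TRR-CCT2-1 at 2 bases, and it was picked out after its values were seen. It stood at 148.3, 87.4 and 79.9 CPM in control total libraries and at 72.3, 24.5 and 96.9 CPM in siSSB. These ranges overlapped, and the log2 fold change was -0.70 ± 0.45 (edgeR adjusted p = 0.499). TRR-CCT2-1 thus made up 36.3, 44.5 and 50.4% of the Arg-CCT counts in control total libraries and 18.3, 34.5 and 21.0% in siSSB, with no overlap. In cyto libraries its share was 71.1, 70.6 and 57.8% in control and 35.6, 33.0 and 46.0% in siSSB, again with no overlap, while in nuc libraries the shares overlapped (11.8, 18.6 and 13.5% against 9.70, 12.6 and 10.2%).

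Shares within a library do not depend on the scaling between libraries. Lys-TTT made up 82.4, 83.2 and 83.6% of the lysine tRNA counts in control total libraries and 72.7, 59.6 and 76.1% in siSSB. In nuc libraries it made up 73.5, 73.7 and 73.7% against 68.5, 67.3 and 68.6%, and in cyto libraries 80.4, 77.8 and 86.1% against 68.0, 72.8 and 67.1%. In all 3 kinds of RNA every siSSB library was below every control library, with differences of the means of -13.6 percentage points in total (-8.69 without siSSB total replicate 2), -5.51 in nuc and -12.1 in cyto. With tRNA-Lys-CTT-10-1 left out of the lysine counts the shares in total were 84.2, 86.7 and 86.7% against 79.6, 76.3 and 80.0%, still apart, and the differences were -7.29 in total, -5.85 in nuc and -8.95 in cyto. An exact permutation test of 3 against 3 libraries has 0.1 as its smallest two-sided p. Within Lys-TTT, the share of TRK-TTT9-1 was also lower in every siSSB library of total and cyto: 8.44, 8.29 and 8.26% in control and 5.69, 5.67 and 4.94% in siSSB total libraries, and 6.51, 7.54 and 7.05% against 3.64, 3.31 and 2.97% in cyto.

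Of all tRNA counts, lysine took 3.34, 3.33 and 3.14% in control total libraries and 1.98, 2 and 2.42% in siSSB, and arginine took 4.42, 4.47 and 4.08% and 2.85, 2.04 and 3.53%. Neither pair of groups overlapped. The share of histidine overlapped between the groups, at 1.75, 1.91 and 2.51% in control and 2.20, 2.87 and 1.93% in siSSB. Beside other amino acids, the median log2 fold changes in total RNA of -1.09 over the lysine genes and -1.12 over the arginine genes were near those of phenylalanine (-1.15), isoleucine (-1.13), asparagine (-1.12) and cysteine (-1.06), and histidine was at -0.55; the most negative was tyrosine (-1.36).

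**Figure D3:**
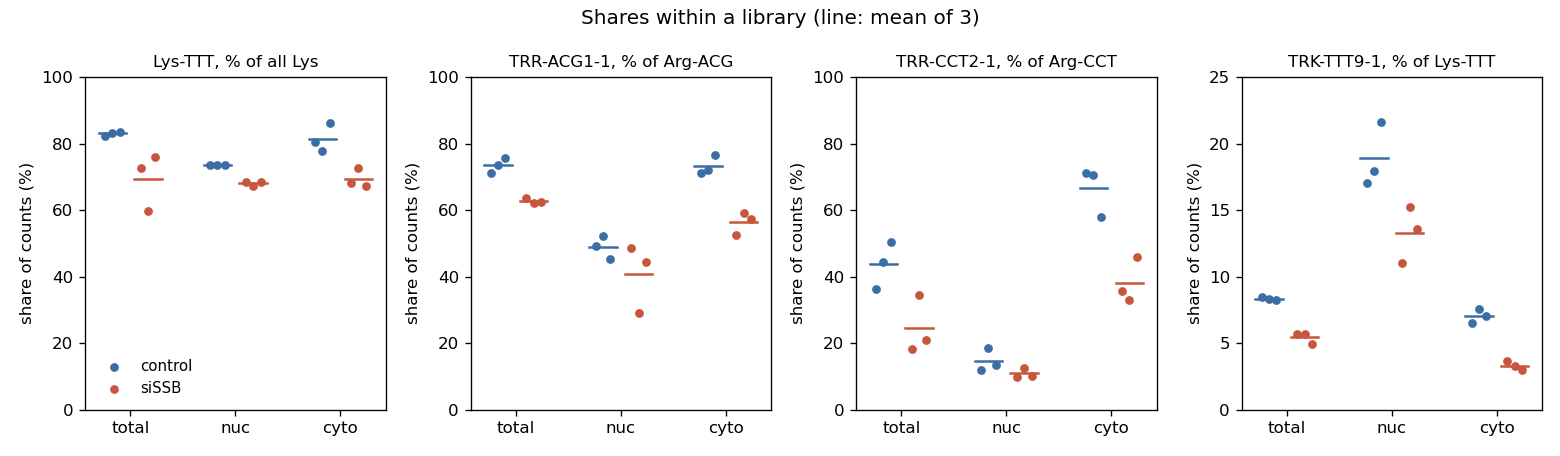
Share of counts within a library (vertical axis, %) of Lys-TTT in all lysine tRNAs, TRR-ACG1-1 in Arg-ACG, TRR-CCT2-1 in Arg-CCT and TRK-TTT9-1 in Lys-TTT, for control and siSSB libraries of total, nuc and cyto RNA; lines are means of 3. The Lys-TTT mean is 83.1% in control total and 69.5% in siSSB total, and the siSSB points lie below the control points in each panel for total and cyto.

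In cytoplasmic RNA, 6 of 58 tested genes were lower after knockdown and none higher (36 and none at an unadjusted p under 0.05 with edgeR, beside 6.66% of all features in either direction): TRK-TTT9-1, TRK-TTT3-3, TRK-TTT3-4, TRR-ACG1-1, TRR-CCT2-1 and TRR-TCG4-1. All 6 were also called in total RNA, which comes from libraries of its own. Whether these were made from other cultures than the cyto libraries is not given in the sources used here. All 58 log2 fold changes were negative (median -0.73, range -2.68 to -0.16), beside 0.01 over all 18921 features tested, of which 0.27% were called lower by edgeR, and -0.58 over the other tRNA rows. The groups did not overlap, lower in siSSB, for 38 of the 58, against 7.53% of all features and 181 of 384 other tRNA rows. All 6 calls were lost without control cyto replicate 1 (0 called) and without siSSB cyto replicate 1 (0 called), and 2 genes passed without control cyto replicate 2 and 2 without siSSB cyto replicate 2. Scaled to all snoRNA 0 passed, to all tRNA 2, and with library size alone 3.

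TRK-TTT9-1 went from 51.3, 43.5 and 66.8 CPM in control cyto libraries to 8.23, 7.96 and 8.92 CPM in siSSB (-2.68 ± 0.28, edgeR adjusted p = 0.00991). The 3 siSSB values lay close together, far under the lowest control. TRK-TTT3-3 went from 77.4, 75.3 and 85.6 CPM to 22.9, 14.9 and 20.7 CPM (-2.03 ± 0.27, edgeR adjusted p = 0.0304), and TRR-CCT2-1 from 372, 287 and 432 CPM to 69.9, 82.3 and 101 CPM (-2.11 ± 0.28, 0.0304). TRR-TCG4-1 stood at 7.93, 6.61 and 10.1 CPM in control and 1.44, 1.00 and 1.53 CPM in siSSB (-2.63 ± 0.29, 0.0105). For TRR-ACG1-1 the values were 244.2, 199.9 and 360.7 CPM against 63.4, 79.3 and 83.2 CPM (-1.83 ± 0.30, 0.0476), and for TRK-TTT3-4 the log2 fold change was -1.74 ± 0.27 (0.043). The groups were clear of each other for each of these genes. TRH-GTG1-5, the highest histidine gene, stood at 183, 155 and 149 CPM in control cyto and 92.7, 85.6 and 124 CPM in siSSB, which also do not overlap, but the log2 fold change of -0.69 ± 0.26 did not pass (edgeR adjusted p = 0.562).

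In nuclear RNA, 1 of 44 tested genes was lower after knockdown, TRK-TTT3-3. It stood at 0.363, 0.460 and 0.231 CPM in control nuc libraries, which are 51, 53 and 24 counts, and at 0.118, 0.0579 and 0.128 CPM in siSSB, which are 15, 8 and 14 counts. The groups did not overlap (-1.81 ± 0.37, edgeR adjusted p = 0.04), and the call was lost without control nuc replicate 1, control nuc replicate 2, siSSB nuc replicate 1 or siSSB nuc replicate 2 (adjusted p from 0.0674 to 0.383), while 2 genes passed without control nuc replicate 3, and 0 under each of the other scalings to a total or to library size. Of the 44, 35 log2 fold changes were negative, with a median of -0.34 (range -1.98 to 1.03) beside 0.08 over all 6873 features tested, of which 0.349% were called lower. Groups did not overlap, lower in siSSB, for 10 of the 44, against 9.06% of all features and 56 of 272 other tRNA rows. The other tRNA rows had a median of -0.35, with 1 of 272 called, which was higher.

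TRK-TTT9-1 went from 1.48, 1.42 and 1.68 CPM in control nuc libraries to 0.670, 0.644 and 0.784 CPM in siSSB, with no overlap (-1.13 ± 0.26, edgeR adjusted p = 0.106). TRR-TCG3-1, picked out after its values were seen, had the most positive value, from 0.164, 0.208 and 0.163 CPM to 0.371, 0.369 and 0.356 CPM (1.03 ± 0.29, adjusted p = 0.174). Its siSSB libraries were all higher in nuc, whereas in cyto they were all lower, at 1.95, 1.25 and 1.79 CPM in control and 0.798, 0.703 and 0.959 CPM in siSSB (-1.02 ± 0.27, 0.205). These are 17 to 51 counts a library in nuc. It made up 3.92, 6.23 and 5.84% of the Arg-TCG counts in control nuc libraries and 10.3, 15.5 and 11.1% in siSSB.

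Whether the knockdown effect differed between nuc and cyto was tested as an interaction in 1 edgeR fit of 12 libraries, and no member of 61 passed. Of all 37493 features tested, 0.0133% passed. At an unadjusted p under 0.05 there were 9 of the 61 with edgeR and 7 with DESeq2, which also called 0; over all features it was 4.9% with edgeR. The median difference (nuc minus cyto) was 0.41 on the log2 scale over the 61 genes, beside 0.01 over all features and 0.14 over the other tRNA rows. Among genes with a mean of at least 50 counts the largest were TRK-CTT2-5 at 1.5 ± 0.53 and TRK-CTT2-1 at 1.45 ± 0.52, and TRR-TCG3-1, with fewer counts, was at 1.91 ± 0.49, each with an edgeR adjusted p of 0.958.

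Where the tRNAs lay was read from nuc against cyto libraries of the same treatment, which are also the libraries of the knockdown comparisons. In control cells 48 of 61 tested genes were lower in nuc and none higher by edgeR at an adjusted p under 0.05 (49 and 3 at an unadjusted p under 0.05, beside 32.4% of all features in either direction), and 14.1% of all 26774 features tested were called lower. The median log2 fold change was -2.61, or -2.37 with the 2 genes at 0 counts in a group set to the bound that 3 counts give, beside -0.27 over all features and -2.16 over the other tRNA rows. In siSSB cells 41 of 57 were lower (14.5% of all features) and 3 were higher (10.8%), with a median of -2.21. The 2 kinds of library differ widely in composition: scaled to the tRNA total, 25 genes were lower in nuc and 13 higher in control cells, and 20 lower and 16 higher in siSSB cells. Values on that scale say where a gene stands relative to other tRNAs.

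**Figure D4:**
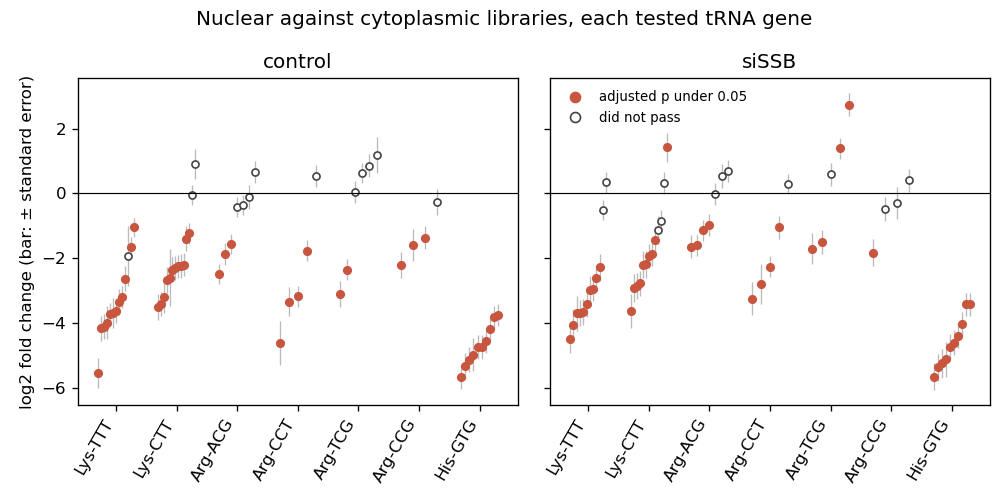
Log2 fold change of nuc against cyto libraries (vertical axis, bars are the standard error) for each tested gene by anticodon, in control and in siSSB cells, TMM-scaled; genes with a group at 0 counts are left out. The 10 His-GTG genes lie lowest as a group (median -4.75 in control), and Arg-TCG genes lie on both sides of 0.

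Of the 7 anticodon totals, that of histidine had the lowest nuc against cyto value, at -4.53 ± 0.34 in control, beside -2.48 for Lys-TTT, the next. All 10 His-GTG genes were lower in nuc in control and in siSSB cells, and their total stayed lower under every scaling run (-10.6 to -2.57 in control). TRH-GTG1-3 stood at 28.5, 24.1 and 20.7 CPM in control cyto libraries and at 0.635, 0.417 and 0.356 CPM in nuc (-5.68 ± 0.38, edgeR adjusted p = 1.03e-13). TRH-GTG1-2 had a log2 fold change of -5.35 ± 0.40 in control and -5.66 ± 0.41 in siSSB cells. Of like size was TRK-TTT2-1, at 26.3, 13.9 and 26.8 CPM in cyto and 0.911, 0.257 and 0.214 CPM in nuc (-5.55 ± 0.45, edgeR adjusted p = 1.3e-11). All of the cyto libraries of these genes lay above all of the nuc libraries.

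The arginine genes were spread out. TRR-CCT2-1 was at 83.2, 61.9 and 96.4 CPM in control cyto and 7.45, 9.75 and 9.37 CPM in nuc (-3.18 ± 0.31, edgeR adjusted p = 7.39e-10), while its near twin TRR-CCT4-1 was at 24.9, 19.1 and 61.0 CPM in cyto and 53.3, 41.2 and 58.1 CPM in nuc, with overlap (0.54 ± 0.34, 0.279). So TRR-CCT4-1 made up 84.7, 78.4 and 83.6% of Arg-CCT counts in control nuc libraries and 21.3, 21.9 and 36.6% in cyto. It was the exception: the other 4 Arg-CCT genes were all called lower in nuc in control cells. Among them was TRR-CCT1-1, which differs from TRR-CCT2-1 at 1 base. Of the Arg-TCG genes 2 of 6 were lower in nuc in control cells, and in siSSB cells 2 were lower and 2 higher. The higher ones were TRR-TCG3-1, at 0.214, 0.201 and 0.282 CPM in siSSB cyto and 1.66, 1.48 and 1.54 CPM in nuc (2.74 ± 0.35, edgeR adjusted p = 5.46e-07), and TRR-TCG1-1 (1.39 ± 0.33, 0.00201). The third gene higher in nuc in siSSB cells was TRK-CTT8-1 (1.42 ± 0.45, 0.0207), at 7 to 14 counts a library. The calls higher in nuc hang on the scaling, with TMM factors of 3.51 to 4.03 for siSSB cyto and 0.228 to 0.349 for siSSB nuc libraries. Summed over Arg-TCG, the value in siSSB cells was 0.65 ± 0.32 with TMM. It turned to -3.24 with library size alone and to -5.33 with the snoRNA total. TRK-TTT9-1 was lower in nuc in control (-1.05 ± 0.30, edgeR adjusted p = 0.0085), and its value in siSSB cells was 0.34 (0.489).

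Copies with the same gene sequence did not hold the same counts, and no 2 genes of the 63 held identical counts over the libraries. How the authors placed reads that match several copies, and whether they used strand, is not given in the sources used here, so the level of a single copy is uncertain. TRR-ACG1-1 held 17631 of the counts of its 3 copies over the control total libraries (96.3%), 82.0 times those of TRR-ACG1-2 (215), and in control nuc libraries its share was 82.7%. In these copies the log2 fold change in total RNA after knockdown was -1.78 for TRR-ACG1-1, -1.26 for TRR-ACG1-2 and -0.47 for TRR-ACG1-3, of which the last 2 did not pass. By contrast the 9 identical His-GTG copies lay within 1.63 times of each other in control total and 1.49 times in control cyto libraries, and within 4.24 times in control nuc, where TRH-GTG1-9 was highest.

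The 5 copies of TRK-TTT3 spanned 5.80-fold in control total libraries. The highest, TRK-TTT3-1, had a log2 fold change after knockdown of -0.94 ± 0.34 and did not pass, while the other 4 passed at -2.10 to -1.54. It stood at 39.1, 25.8 and 28.7 CPM in control total libraries and 18.5, 8.81 and 21.6 CPM in siSSB, with no overlap. The 5 copies of TRK-CTT2 spanned 3.32-fold in control total and 8.35-fold in control nuc libraries, where TRK-CTT2-2 held 62.5% of their counts. TRK-CTT2-2 was at 3.97, 2.85 and 4.10 CPM in control cyto and 3.31, 3.56 and 3.67 CPM in control nuc, so the levels overlapped, unlike those of its 4 copies, which were all called lower in nuc.

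**Figure D5:**
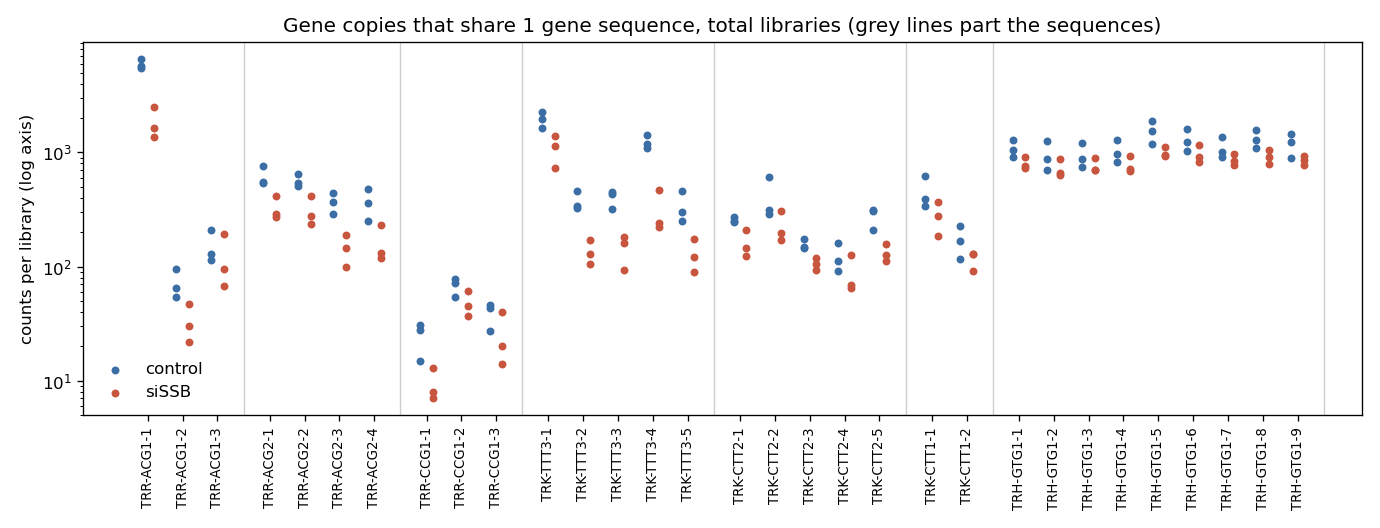
Counts per library (vertical axis, log axis) of genes that share 1 gene sequence, in control and siSSB total libraries; grey lines part the 7 sequences. TRR-ACG1-1 stands far above its 2 copies, while the 9 His-GTG copies lie within 1.63 times of each other when the control libraries are summed.

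The end of the transcript, which La binds, was set beside the knockdown change as a description. In total RNA the 41 tested genes with a T run inside the 25 nt flank had a median log2 fold change of -1.13 and 11 calls, and the 17 without had -0.56 and 2 calls. Of these 17, 9 were His-GTG genes, while all 9 called Lys-TTT genes had such a run, so the split overlaps with the anticodon. In cyto the medians were -0.86 (40 genes with the run) and -0.56 (18 without), and in nuc -0.37 (31) and -0.34 (13). A link between the run and the change was not tested. Across the 55 tested genes with a T run found, the distance to the run and the log2 fold change gave Pearson's r = 0.34 and Spearman's rho = 0.29 in total, 0.13 and 0.14 in cyto (54 genes) and -0.12 and -0.12 in nuc (44 genes). These points share libraries, and copies share reads. Genes on chromosome 6, where 17 of the 63 lie, had a median of -1.39 in total RNA with 6 calls, and the other 41 tested genes had -0.77 with 7. This split was not planned, and anticodons are spread unevenly over it. On chromosome 6 lie only TRH-GTG1-5 of His-GTG and only TRK-CTT2-4 of Lys-CTT. Of Lys-TTT, TRK-TTT3-3, TRK-TTT4-1, TRK-TTT6-1, TRK-TTT7-1 and TRK-TTT9-1 lie there. An effect of location was not tested.

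Not every gene could be tested. In total RNA 5 lysine genes fell under the filter on low counts, with 5 to 108 counts over the 18 libraries: TRK-CTT7-1, TRK-CTT9-1, tRNA-Lys-CTT-11-1, TRK-TTT8-1 and tRNA-Lys-TTT-11-1. In nuc 19 of the 63 fell under it, among them TRR-TCG4-1, which held 1289 counts over the 18 libraries but stood at 0.0641, 0.0434 and 0.0577 CPM in control nuc libraries. Without the filter, 3 genes passed in nuc and 24 in total RNA.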

How the data were processed

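The authors deposited 1 table of raw counts, whole numbers of reads per noncoding RNA row, without normalization. The submitters' processing notes name Bowtie2, bedtools and hg38, without versions, and the study's sources do not tie 1 Bowtie2 version to these libraries. No column was left unused. Groups and replicate numbers came from the sample titles. The members and lists were chosen with earlier results of these data known.

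Counts were fitted with edgeR 4.0.16 in R 4.3.3 (TMM, filterByExpr, quasi-likelihood test, Benjamini-Hochberg over all rows tested, call at adjusted p under 0.05) on the libraries compared. Anticodon totals and shares have no test. Named genes were those called, the highest gene per anticodon and the 3 with the largest change per comparison (mean of at least 50 counts). TRR-CCT4-1, TRR-CCT1-1, TRR-ACG1-2, TRR-ACG1-3, TRR-TCG3-1, TRK-TTT3-1, TRK-CTT2-2, TRK-CTT8-1 and TRH-GTG1-9 were added after their values were seen. Same-numbered control nuc and cyto libraries deviated together (r = 0.184, 0.198 and 0.195 over 3576 features), so these numbers pair in control cells. In siSSB cells it was less clear (r = 0.0595, 0.332 and 0.156, with nuc replicate 1 and cyto replicate 3 at 0.226). The numbers of the knockdown comparisons did not pair, but libraries of unlike number deviated together. For siSSB replicate 3 and control replicate 1, r was 0.671 in total, 0.476 in nuc and 0.863 in cyto. For siSSB replicate 2 and control replicate 3 it was 0.518, 0.724 and 0.855, and for siSSB replicate 1 and control replicate 2 it was -0.214, 0.406 and 0.387. What these libraries share was not tested. The main fits took no account of pairing, and the replicate block went by number. P-values set the difference between groups against the spread between these libraries of a single line, which edgeR estimates partly across features. Reads carry no molecular identifiers, so counts are not independent molecules. Sequences were read with samtools 1.23.1 from GRCh38 at RefSeq positions. Alternatives were other scalings, DESeq2 1.42.0, no filter, identical rows once, a replicate block, all libraries in 1 fit, adjusted p under 0.01 and each library left out; leaving tRNA-Lys-CTT-10-1 out of the lysine sums was added after seeing the data. The scripts were tested on simulated data.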

Additional observations from a re-analysis of the deposited data

How the results depend on the processing

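Counts of called genes moved with the settings. For siSSB against control in total RNA (13 called), library size alone gave 8, DESeq2 20, the tRNA total 9 (8 lower and 1 higher), the miRNA total 52, the snoRNA total 4, no filter on low counts 24, and adjusted p under 0.01 gave 0; leaving out 1 library gave 3 to 22. In nuc (1 called) they gave 0, 4, 0, 0, 0, 3 and 0, and leaving out 1 library 0 to 2. In cyto (6 called) they gave 3, 13, 2, 10, 0, 12 and 1, all 18 libraries in 1 fit gave 10, and leaving out 1 library 0 to 5. Among DESeq2's 20 calls in total RNA, 12 were shared with edgeR. With the replicate number as a block, 16, 2 and 0 genes were called in total, nuc and cyto, and 49 in place of 48 for nuc against cyto in control cells; the knockdown numbers share only a number. Nuc against cyto gave 38 to 61 in control and 36 to 57 in siSSB cells, and the interaction gave 0 under every alternative run. Anticodon totals lower without overlap, 7 in total, 3 in nuc and 7 in cyto, became 4, 1 and 4 with library size alone, 3, 2 and 4 with the tRNA total, 4, 3 and 3 with the snoRNA total and 7, 0 and 7 with the miRNA total; leaving out 1 library gave 6 to 7, 3 to 4 and 6 to 7. The Lys-TTT share of lysine counts differed by -16.9 to -8.69 percentage points in total, -5.74 to -5.11 in nuc and -13.9 to -9.78 in cyto with 1 library left out, and by -7.29 in total without tRNA-Lys-CTT-10-1.

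Directions turned mostly with the tRNA total. After knockdown those of named genes, and of totals over 2 standard errors from 0, were TRH-GTG1-5 (0.0036) and TRR-CCG2-1 (0.011) in total, TRR-TCG1-1 (0.031) in nuc, and TRR-CCG2-1 (0.016), tRNA-Lys-CTT-10-1 (0.35) and the Arg-CCG total (0.000571) in cyto. Totals nearer 0 that also turned with it were Lys-CTT (0.22) and His-GTG (0.18) in total and Arg-TCG (0.19), His-GTG (0.13) and Lys-CTT (0.14) in nuc; the last 3 lay above 0 under every scaling but TMM and DESeq2's. For nuc against cyto the totals that turned were Arg-ACG (0.10), Arg-CCG (0.56), Arg-CCT (1.03), Arg-TCG (1.71), Lys-CTT (0.21) and all arginine (0.83) in control, and Arg-ACG (0.68), Arg-CCG (1.33), Arg-CCT (1.5), all arginine (1.40), Lys-CTT (0.36), Lys-TTT (0.28) and all lysine (0.30) in siSSB cells. Arg-TCG in siSSB cells turned to -5.33 with the snoRNA total and -3.24 with library size alone. tRNA-Lys-CTT-10-1 turned to -0.20 in total with the miRNA total, and in cyto to 0.13 with the snoRNA total and lay between -0.46 and 0.12 with 1 library left out (0.03 without control cyto replicate 1 or siSSB cyto replicate 2). The cause was not tested. Of 784 values of named genes under alternatives, 626 kept direction and side of the threshold, 125 lost the call, 23 gained one and 10 changed sign. All calls lost were knockdown calls, and the 784 also hold genes never called and nuc against cyto results far inside the threshold. Of 16 alternatives each, TRK-CTT2-5 lost its call in total in 11, and TRK-TTT9-1 and TRR-CCT2-1 in 1. TRK-TTT3-4 and TRR-ACG1-1 lost theirs in cyto in 11, and TRK-TTT3-3 in nuc in 9.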
